A study of Homo sapiens with 32 samples.

Results

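In ASPC1 cells in which the P2 promoter of HNF4A had been targeted for repression, an antibody specific to the P1 isoforms of HNF4α was compared with a pan-HNF4α antibody by the sites at which each gave a ChIP-seq peak. The comparison used 4 of the 32 libraries of the series, 2 with each antibody, and each library had a peak list of its own. Overlapping peaks of the 4 lists (at least 1 bp) were merged into 17808 regions, and each region was classed by the lists that held it. P1-only regions were in both P1 lists and in neither pan list, pan-only regions were in both pan lists and in neither P1 list, and all-4 regions were in every list. These classes held 10, 5195 and 2851 regions, and the other 9752 regions fell in other combinations.

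The series mapped HNF4α binding in the human pancreatic ductal adenocarcinoma lines Panc10.05, BxPC3 and ASPC1. ASPC1 cells carried CRISPR interference (CRISPRi), which blocks transcription at a promoter chosen by a guide RNA, with the genotypes sgNC, sgP1 and sgP2. The 4 libraries compared here were all sgP2 (sgP2D in the titles, whose last letter the labels do not explain), have no doxycycline treatment in their labels and differed in the antibody, HNF4α-P1 (Perseus Proteomics PP-K9218) or HNF4α (PP-H1415). Lists used for comparison came from sgNC with both antibodies, sgP1 with the pan antibody, and Panc10.05 and BxPC3 cells expressing P1-a2 or P2-a8 under doxycycline (25 and 12.5 ng/mL in Panc10.05, 500 ng/mL in BxPC3), mapped with the pan antibody. The BxPC3 P2-a8 libraries bear that genotype label but P1-a8 in their titles, and the genotype was followed. Each replicate used 10000000 cells, crosslinked with disuccinimidyl glutarate and formaldehyde, and 5 µg of antibody. The labels list 2 sgP2 input libraries, numbered 1 and 2, for these 4 immunoprecipitations. They do not say that replicates were separate cultures, that same-numbered libraries shared chromatin, or whether the CRISPRi cells were clonal, so a p-value here measures the spread between these libraries only. Peak lists hold no expression, so neither the repression of P2 nor the identity of the cells could be checked from them.

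HNF4α is a nuclear receptor that binds DNA as a homodimer and drives genes of liver, intestine and other endodermal epithelia. Its gene has a pair of promoters, P1 and P2, and the transcripts differ at the N-terminus while sharing the DNA-binding domain. The P1 antibody recognises the N-terminus of P1 isoforms, whereas the pan antibody recognises a part shared by P1 and P2 isoforms. In the pancreas HNF4α is known for the P2 isoforms, and in liver for the P1 isoforms.

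Promoters are shown because they are the places where the peaks could be set beside the sequence. Each window runs from 250 bases before to 50 bases after a RefSeq gene start (GRCh38.p14, the gene's strand, 5′ to 3′). The capitals mark an exact match to 1 of 3 motifs of the HNF4 direct-repeat type, CAAAGTCCA, CAAAGTTCA or CAAAGGTCA, searched on both strands. The 3 strings differ from each other only in their middle letters and cannot overlap at the same position. The windows are those with a match and the highest mean percentile in their class, 4 all-4 promoters and 3 pan-only promoters. CIDEB encodes a lipid droplet protein of lipoprotein-secreting cells, CLRN3 a tetraspan membrane protein, GPR35 a G protein-coupled receptor of the gut and MISP an actin-bundling protein of the mitotic spindle. BLOC1S5 encodes a subunit of a lysosome-related organelle complex, OSBPL9 an oxysterol-binding protein family member and TRIM40 a ubiquitin ligase of the tripartite-motif family.
CIDEB, all-4, - strand, chr14:24307928-24308227: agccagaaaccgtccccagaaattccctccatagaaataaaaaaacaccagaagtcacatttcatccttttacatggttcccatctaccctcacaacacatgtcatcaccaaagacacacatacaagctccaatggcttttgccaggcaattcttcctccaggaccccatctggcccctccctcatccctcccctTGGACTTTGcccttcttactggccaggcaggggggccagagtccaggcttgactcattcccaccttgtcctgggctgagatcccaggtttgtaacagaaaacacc
CLRN3, all-4, - strand, chr10:127892892-127893191: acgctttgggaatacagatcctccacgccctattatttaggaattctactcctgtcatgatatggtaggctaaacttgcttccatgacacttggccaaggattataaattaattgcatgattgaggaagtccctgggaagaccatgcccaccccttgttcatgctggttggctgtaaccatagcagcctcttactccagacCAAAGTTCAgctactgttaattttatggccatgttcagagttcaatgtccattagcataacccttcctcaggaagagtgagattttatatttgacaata
GPR35, all-4, + strand, chr2:240605180-240605479: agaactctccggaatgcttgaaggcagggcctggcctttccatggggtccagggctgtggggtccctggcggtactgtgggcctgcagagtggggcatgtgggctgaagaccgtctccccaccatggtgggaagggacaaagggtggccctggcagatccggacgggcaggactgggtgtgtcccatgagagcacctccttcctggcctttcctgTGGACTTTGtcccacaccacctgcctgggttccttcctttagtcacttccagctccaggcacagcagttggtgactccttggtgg
MISP, all-4, + strand, chr19:750862-751161: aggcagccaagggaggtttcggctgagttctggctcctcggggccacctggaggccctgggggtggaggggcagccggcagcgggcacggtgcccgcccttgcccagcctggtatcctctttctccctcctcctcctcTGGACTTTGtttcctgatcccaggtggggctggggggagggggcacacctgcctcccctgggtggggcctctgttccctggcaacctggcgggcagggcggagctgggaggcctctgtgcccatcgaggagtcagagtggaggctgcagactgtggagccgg
BLOC1S5, pan-only, - strand, chr6:8064340-8064639: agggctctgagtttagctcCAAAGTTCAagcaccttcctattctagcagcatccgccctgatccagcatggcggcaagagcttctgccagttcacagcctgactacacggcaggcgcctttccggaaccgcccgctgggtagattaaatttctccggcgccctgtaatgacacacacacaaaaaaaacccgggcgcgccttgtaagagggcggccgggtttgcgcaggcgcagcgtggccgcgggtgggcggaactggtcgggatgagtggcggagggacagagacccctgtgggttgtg
OSBPL9, pan-only, + strand, chr1:51518022-51518321: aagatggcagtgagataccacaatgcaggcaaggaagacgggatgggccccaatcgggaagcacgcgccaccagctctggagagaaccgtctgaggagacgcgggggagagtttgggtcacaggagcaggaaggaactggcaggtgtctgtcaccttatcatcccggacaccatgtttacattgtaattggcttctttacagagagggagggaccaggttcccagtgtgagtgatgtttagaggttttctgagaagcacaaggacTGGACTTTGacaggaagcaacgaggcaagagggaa
TRIM40, pan-only, + strand, chr6:30135890-30136189: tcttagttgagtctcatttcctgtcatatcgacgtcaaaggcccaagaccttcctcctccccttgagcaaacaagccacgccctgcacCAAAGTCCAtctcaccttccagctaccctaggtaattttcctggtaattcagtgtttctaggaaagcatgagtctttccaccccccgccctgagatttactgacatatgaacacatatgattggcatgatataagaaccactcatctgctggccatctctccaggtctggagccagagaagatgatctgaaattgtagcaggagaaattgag

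The CIDEB match began 55 bases before the start site, and the summits of the P1 lists lay 9 and 36 bp from its centre, those of the pan lists 16 and 27 bp. The region (chr14:24307508-24308640) ranked at percentiles 99.5 and 98.7 in the P1 lists and 99.7 and 99.6 in the pan lists, where 100 is the strongest peak of a list by the authors' fold enrichment. At CLRN3 the match began 49 bases before the start, with summits at 17 and 25 bp (P1) and 8 and 19 bp (pan). At GPR35 the match began 35 bases before the start, with summits at 7 and 23 bp (P1) and 1 and 17 bp (pan). At these 3 promoters the summit of each list's strongest peak lay within 36 bp of the match.

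At MISP the strongest P1 peaks of the merged region (chr19:750638-753347) had summits 36 and 5 bp from the match. The strongest pan peaks of that region had summits 937 and 965 bp from the match. Each list is represented in a merged region by its strongest peak, so a weaker pan peak at the match would not be seen. At the pan-only promoters of BLOC1S5 and TRIM40 the pan summits lay 3 and 36 bp, and 20 and 6 bp, from the match, which began 231 and 162 bases before the start. At the pan-only promoter of OSBPL9 the match lay past the start site and the pan summits 638 and 635 bp from it.

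Across all promoters, any of the 3 motifs was present in 31 of 361 windows that overlapped an all-4 region (8.59%, exact 95% interval 5.91% to 11.97%). It was present in 19 of 724 windows that overlapped a pan-only region (2.62%, interval 1.59% to 4.07%), in 2.19% of those at other regions and in 0.679% of those at no region. Over all 22199 windows the share was 0.946%, with 0.356% for CAAAGTCCA, 0.243% for CAAAGTTCA and 0.347% for CAAAGGTCA. With CAAAGTCCA alone the all-4 and pan-only shares were 4.71% and 1.66%. A match describes the letters only, the intervals (Clopper-Pearson) cover counting error only, and windows of neighbouring starts can overlap. The classes also differ in pan rank and peak width, and the motif shares were not compared at matched rank.

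Most P1 peaks overlapped a pan peak by at least 1 bp, while most pan peaks overlapped no P1 peak. The P1 lists held 5200 and 3916 peaks (replicates 1 and 2) and the pan lists 12345 and 15116. Of the P1 peaks, 88.1% (replicate 1) and 96.1% (replicate 2) overlapped a peak of at least 1 pan list. Of the pan peaks, 42.0% and 34.9% overlapped a peak of at least 1 P1 list. The P1 lists overlapped each other less, as 55.9% of the replicate 1 peaks had a replicate 2 peak and 74.2% had one the other way. Each P1 list therefore shared a larger part of its peaks with either pan list than with the other P1 list. The pan lists are longer and offer more peaks to overlap, and the part of list length in this was not tested.

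All-4 regions were 16% of the 17808 regions, pan-only regions 29.2% and P1-only regions 0.0562%. Among the rest, 4614 regions were only in pan replicate 2, 1893 only in pan replicate 1, 1468 in every list but P1 replicate 2, and 759 in every list but P1 replicate 1. The 607 regions found only in P1 replicate 1 and the 141 found only in P1 replicate 2 were weak, with median percentiles of 12.1 and 10.7 and median widths of 235 and 225 bp. Of these, 10.7% and 12.8% overlapped a peak of sgNC pan replicate 1, and 6.10% and 7.80% one of replicate 2. Leaving out a library loosens the rule for a class, so the class sizes could then hardly fall. Their rise follows from the combinations above and does not single out a library. Without P1 replicate 2 there were 617 P1-only and 4319 all-4 regions, without P1 replicate 1 there were 151 P1-only regions, without pan replicate 2 there were 31, and without pan replicate 1 there were 9837 pan-only regions.

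The classes also moved with list length. With each list cut to its 3916 strongest peaks there were 142 P1-only, 243 pan-only and 2201 all-4 regions among 6093. Of those 142 regions, 131 were in both full pan lists and 2 in neither. Of the 243, 210 were in neither full P1 list and 33 were in P1 replicate 1. The read depth is unknown, and depth, the efficiency of each antibody and the number of bound sites cannot be told apart here.

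Whether a pan site had a P1 peak followed its rank in the pan lists. The 10273 regions in both pan lists were split into deciles by their mean percentile there. From the weakest to the strongest decile, the share in both P1 lists was 1.95%, 0.292%, 1.46%, 5.06%, 6.42%, 14.1%, 24.8%, 49.5%, 77.1% and 96.8% (exact 95% interval of the last, 95.5% to 97.8%). This interval covers counting error only. In the strongest decile, 32 regions were in 1 P1 list and 1 region was in none. In the strongest deciles 9 and 10 together, 32 of 2055 regions were in no P1 list. The median pan percentile was 87.2 and 89.7 at all-4 regions and 37.9 and 46.4 at pan-only regions.

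**Figure D1:**
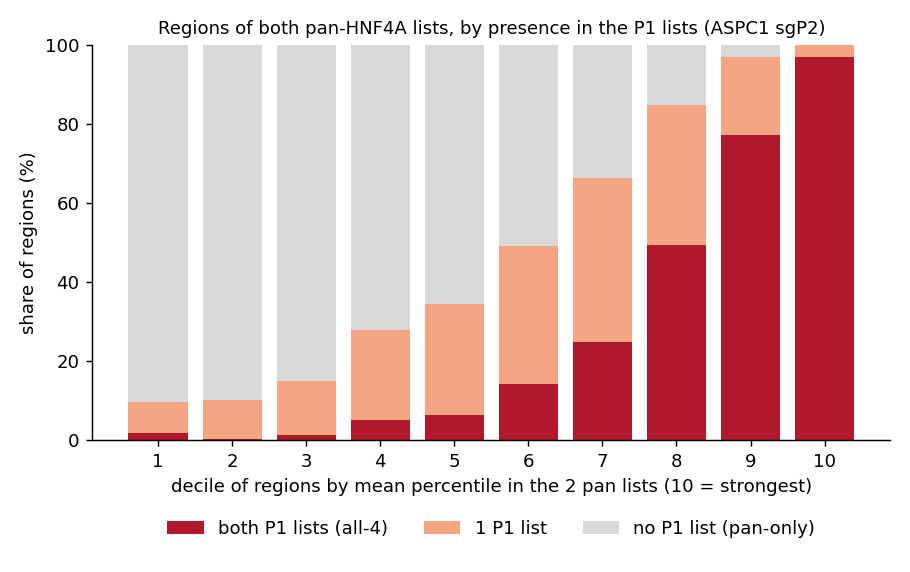
The horizontal axis gives the decile of the 10273 regions in both pan lists by mean pan percentile and the vertical axis the share (%) in both, 1 or neither of the P1 lists. The share in both P1 lists goes from 1.95% in the weakest decile to 96.8% in the strongest.

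The weakest decile departed from this order, as it held 20 all-4 regions against 3 in the next decile. By fold these 20 regions had median percentiles of 1.67 and 0.638 in the P1 lists and 0.186 and 0.245 in the pan lists. By −log10 p they stood much higher, at 61.9 and 23.5 (P1) and 40.6 and 44.1 (pan), and 9 of the 20 lay over 500 kb from a protein-coding start. The 10 P1-only regions had the same make-up, with median percentiles of 1.84 and 1.20 by fold and 52.7 and 49.99 by −log10 p. Pan-only regions of the weakest decile did not, with 11.8 and 14.6 by fold and 14.05 and 18.3 by −log10 p.

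Where all 4 lists had a peak, the order of the sites was alike with both antibodies. Over the 2851 all-4 regions, Spearman's rho of the within-list percentile was 0.672 between the P1 lists and 0.765 between the pan lists. Between antibodies it was 0.809 for the replicate 1 lists, 0.822 for the replicate 2 lists, 0.694 for P1 replicate 1 with pan replicate 2 and 0.677 for P1 replicate 2 with pan replicate 1. The same-antibody mean was 0.718 and the different-antibody mean 0.751. The difference was -0.032, and a permutation over the 3 ways of pairing the lists gave an exact p of 0.667 (one-sided), where the smallest possible is 0.3333 (0.667 after Benjamini-Hochberg adjustment over 7 tests). The sign of this difference depended on the setting, as it was 0.029 with ranks by −log10 p, 0.040 without P1 replicate 1 and 0.049 without P1 replicate 2.

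**Figure D2:**
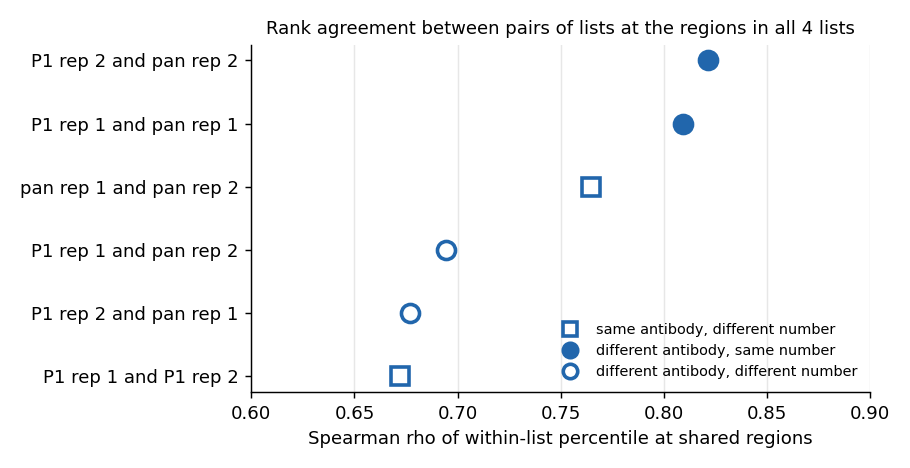
Each point is 1 of the 6 pairs of lists, and the horizontal axis gives Spearman's rho of their percentiles at the 2851 all-4 regions. The 2 pairs of different antibodies with the same replicate number, at 0.809 and 0.822, lie above the other 4 pairs (0.672 to 0.765).

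By fold, lists with the same replicate number were more alike in rank than lists with the same antibody. Different-antibody lists with the same number had a mean rho higher by 0.130 than those with different numbers, and with ranks by −log10 p this difference was 0.029, as was that between same and different antibodies. Percentiles were ranked again among the 2851 regions, since the lists differ in length. Then 444 regions (15.6%) ranked higher in both P1 lists than in both pan lists and 417 (14.6%) ranked lower in both, leaving 1990 with no order by antibody. By replicate number, 686 (24.1%) ranked higher in both replicate 1 lists than in both replicate 2 lists, and 715 (25.1%) lower. The median shift between the antibodies' mean ranks was 7.91 points in size and the highest 53.0 points. Summits of a shared region lay a median of 18 to 26 bp apart in every pair of lists, and 90.4% to 96.1% were within 100 bp.

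The 6 shared regions with the largest upward shift with the P1 antibody were near B3GLCT, PHC2, SHISAL1, MTHFD1L, CYTH1 and SLC45A1. The region inside B3GLCT (chr13:31207930-31208305), the gene of a glucosyltransferase, had ranks of 60.3 and 64.3 in the P1 lists and 10.5 and 8.96 in the pan lists. The region 5.94 kb from PHC2 (chr1:33436845-33437217), which encodes a Polycomb protein, had ranks of 51.5 and 56.2 against 8.63 and 6.51. At both the P1 ranks lay close together and far above the pan ranks. At the region 1.25 kb from CYTH1 (chr17:78672403-78673188) the P1 ranks were 39.3 and 81.6, and the pan ranks 15.8 and 17.4.

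The 6 regions with the largest downward shift were near NMS, ACADL, HTR1D, SYNJ2, IRF8 and MRPS10. The region 9.32 kb from NMS (chr2:100460812-100461514), the gene of the neuropeptide neuromedin S, had ranks of 4.10 and 26.3 with the P1 antibody and 77.4 and 59.0 with the pan antibody. The region inside ACADL (chr2:210189663-210190529), which encodes an acyl-CoA dehydrogenase, had 24.1 and 9.91 against 64.9 and 61.2. All 12 regions were also in all 4 sgNC and sgP1 pan lists. In the 8 lists of the induced lines, the regions shifted up were in 3 to 8 lists and those shifted down in 0 to 8. These regions were picked for their shift, so the values are a description.

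Peaks of the P1 antibody were narrower at the same sites. The median width at all-4 regions was 380 and 362 bp in the P1 lists (371 ± 12.7, SD, n = 2) and 634 and 709 bp in the pan lists (671.5 ± 53.0, SD, n = 2). The log2 ratio of the means was -0.86, a difference larger than the spread between replicates, and the permutation of the 6 labellings gave an exact two-sided p of 0.3333, the smallest they can give (0.389 adjusted over 7 tests). Of the 2851 regions, 2585 (90.7%) were narrower in both P1 lists than in both pan lists and 7 were wider in both. The P1 widths at all-4 regions were near the pan widths at pan-only regions, which were 333 and 395 bp. Peak width moves with signal height and depth, whose part in this difference was not tested.

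**Figure D3:**
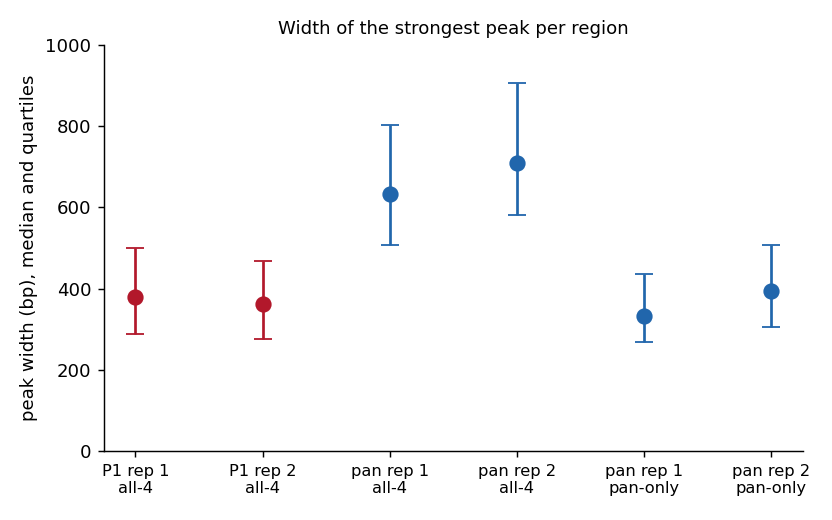
Points are median peak widths (bp) and bars run from the lower to the upper quartile, for the 4 lists at the 2851 all-4 regions and the pan lists at the 5195 pan-only regions. The all-4 medians of the P1 lists (380 and 362 bp) are near the pan-only medians (333 and 395 bp), and those of the pan lists are 634 and 709 bp.

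With the full lists, P1 peaks had a lower share at gene starts, a difference that was smaller at equal list length. Of the summits off chromosome 8, 12.99% and 11.2% in the P1 lists (12.1% ± 1.29, SD, n = 2) and 15.7% and 16.5% in the pan lists (16.1% ± 0.547, SD, n = 2) were within 1 kb of a protein-coding start. The difference of -3.99 percentage points exceeded the spread between replicates, with an exact permutation p of 0.3333, two-sided and the smallest possible (0.389 adjusted over 7 tests). At equal length the difference was -0.77 points (exact permutation p = 1), and the class shares were 12.6% for all-4 and 12.7% for pan-only regions. With the full lists, 345 of 2702 all-4 regions (12.8%, exact 95% interval 11.5% to 14.1%) and 841 of 4913 pan-only regions (17.1%, interval 16.1% to 18.2%) were within 1 kb of a start. These intervals treat regions as independent and cover counting error only, not the spread between libraries. Farther out the values lay closer, with median distances of 27.1 and 24.8 kb and 54.2% and 55.0% of regions inside a protein-coding gene. None of the 9 P1-only regions off chromosome 8 was within 1 kb, which allows a share of up to 33.3%, and their median distance was 651 kb. Among all-4 regions, the 345 near starts had a median shift of -1.50 points with the P1 antibody, with 11.6% ranked higher in both P1 lists and 18.3% lower, beside 15.6% and 14.6% over all shared regions. The P1 lists differed there, with a median rank of 56.9 in replicate 1 and 46.2 in replicate 2, on either side of the pan lists (52.7 and 53.2).

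The strongest all-4 regions were at the top of all 4 lists. The region 0.76 kb from PAOX (chr10:133377862-133379141), which encodes a polyamine oxidase, was at percentile 100 in 3 of the 4 lists and at 99.99 in pan replicate 1. A region 74.8 kb from NRIP1 (chr21:15140246-15141134), the gene of a nuclear receptor co-repressor, was above percentile 99.9 in each list, with widths of 800 and 632 bp (P1) and 889 and 864 bp (pan). The region inside NDST1 (chr5:150541974-150543664), a heparan sulfate sulfotransferase gene, had percentiles of 99.98, 99.95, 100 and 99.88. The next were near LENG8, SIRPA, SEMA3A, TCF7L1 and MYO15B. All 8 regions were also in all 8 lists of the induced lines, in the 4 sgNC and sgP1 pan lists and in both sgNC lists of the P1 antibody.

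The strongest pan-only regions were well up the pan lists and had no P1 peak. The region inside NCR3LG1 (chr11:17353366-17354117), which encodes a ligand of a natural killer cell receptor, was at percentiles 90.5 and 93.2. The region inside DST (chr6:56482430-56483093), the gene of the linker protein dystonin, was at 91.8 and 89.7, and no list of the induced lines held it. The regions of ANKRD26 (chr10:27100242-27100699, 0.024 kb from its start, 89.3 and 91.6) and ZNF567 (chr19:36687190-36687658, 0.188 kb from its start, 88.0 and 91.1) lay at promoters. The others were inside FXYD3, SPRED3 and MGAT1 and 201 kb from RAD51AP2. All 8 were in the 4 sgNC and sgP1 pan lists and in neither sgNC list of the P1 antibody, and other than the DST region they were in 4 to 8 of the 8 lists of the induced lines.

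The 10 P1-only regions were mostly weak by fold and far from genes. The strongest was inside EML1 (chr14:99927948-99928218), a microtubule-associated protein gene, at percentiles 79.1 and 21.7 in the P1 lists, and was also in sgNC P1 replicate 1 and in 1 other pan list. A region 30.5 kb from LTBP1 (chr2:32916290-32916636), which encodes a TGF-β binding protein, was at 28.7 and 27.7 and in none of the other 14 lists. The other 8 were at percentile 3.13 or lower in both P1 lists. They had TAF11L10, PRIM2, LOC124904970, LOC101929601, LOC102723475, EMB (for 2 regions) and H3-7 as nearest genes, and 6 of them lay 641 to 2315 kb away.

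Across the 20037 protein-coding genes, 22.7% had an all-4 region within 50 kb and 35.5% a pan-only region. The classes shared 2657 genes, 58.5% of those near an all-4 region and 37.4% of those near a pan-only region. ID2, RIPK4, SMURF1, TNS3 and ZNF521 were each the nearest gene of 5 all-4 regions. TNS3 was also nearest to 8 pan-only regions and the others of these genes to 2 each. CELSR1, CTAGE1, MKLN1, RUNX1, WDFY3 and ZMYND8 were each nearest to 5 pan-only regions and to no all-4 region. These 11 genes were singled out after their counts were seen. At HNF4A itself only 2 weak regions lay within 50 kb, both only in pan replicate 2, at percentiles 9.65 and 6.09.

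Gene lists were read against that background, as a description without a test, and larger genes reach more regions. Only the 3 classes were counted, and regions of other combinations, some of them in 1 P1 list, were left out. A gene given as having only a pan-only region had no all-4 region, and whether it had a P1 peak nearby was not checked. Of 25 intestinal brush border and enterocyte genes, 16 had an all-4 region within 50 kb and 3 more only a pan-only region. Of 23 tight junction and adhesion genes these numbers were 14 and 5, of 29 endodermal transcription factor genes 14 and 3, and of 24 classical pancreatic cancer genes 10 and 5. The blood lineage genes, taken as markers of other cell types, had 3 and 9 of 20, and the neuronal genes 3 and 3 of 20. Of those 9, CD3D, CD3E and CD3G shared 1 region, and LYZ is also in the classical pancreatic cancer list. Over all genes, 22.2% had only a pan-only region. No list had a gene within 50 kb of a P1-only region. The count for brush border genes was 15 both within 10 kb and by nearest gene only, whereas the count for blood lineage genes was 1 in each, beside 11.2% of all genes within 10 kb and 11% by nearest gene. Of the other lists above the all-gene share at 50 kb, the basal and the gluconeogenesis and glycolysis lists came near it in these narrower settings. The rest stayed above it. Basal genes were at 12.5% in each, and gluconeogenesis and glycolysis genes at 15% and 10%. Metabolism genes were at 16% and 20%, growth control genes at 19.2% and 30.8%, and classical genes at 29.2% and 33.3%. Endodermal transcription factor genes were at 37.9% in each, and tight junction genes at 47.8% and 43.5%.

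**Figure D4:**
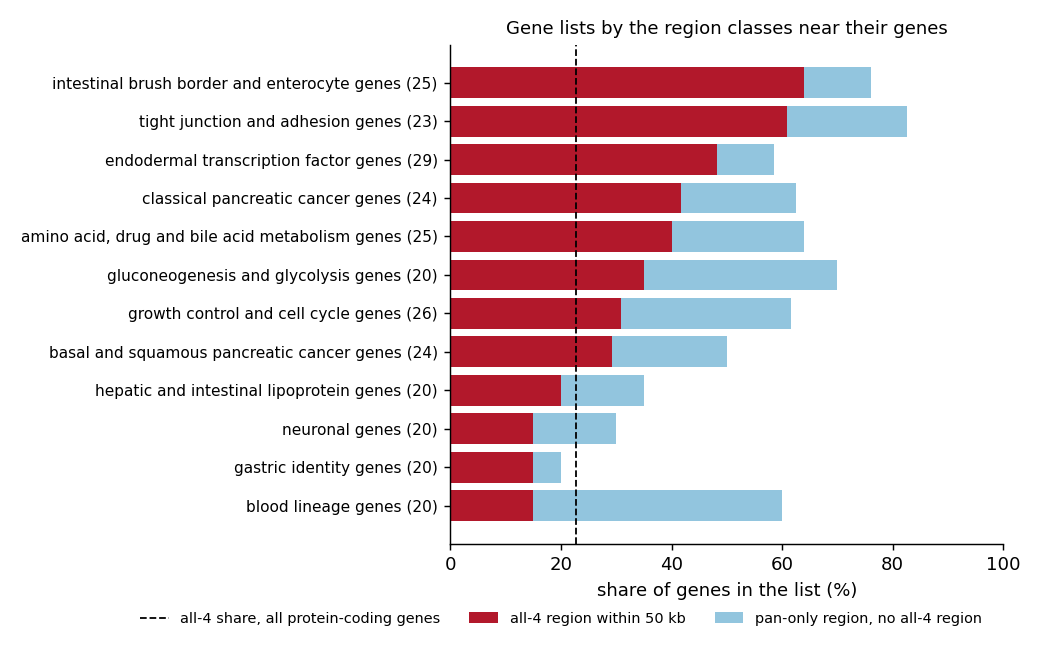
Bars give, for each gene list with its number of genes, the share (%) of genes with an all-4 region within 50 kb and, added to it, the share with a pan-only region but no all-4 region. The dashed line is the 22.7% of all protein-coding genes with an all-4 region, above which lie 8 of the 12 lists, from basal and squamous genes (29.2%) to brush border genes (64%).

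Among brush border genes, the region inside CDH17 (chr8:94198431-94199018), the intestinal cadherin gene, was at percentiles 97.4 and 97.1 with the P1 antibody and 99.2 and 99.3 with the pan antibody. The region inside USH1C (chr11:17542065-17542875), a scaffold of the brush border, was at 97.2 and 86.5, and 98.9 and 96.2. The region inside DPP4 (chr2:162027547-162028409), the gene of a brush border peptidase, was at 96.7 and 94.1, and 98.0 and 96.6. EPS8L3, an actin regulator gene, held a region (chr1:109763231-109764488) at 89.98 and 92.9, and 97.9 and 98.3. In this list VDR, KRT20 and TREH had pan-only and no all-4 regions, with VDR, the vitamin D receptor gene, at pan percentiles of 83.4 and 84.0 (chr12:47818932-47819519, 22.0 kb away).

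Among classical pancreatic cancer genes, CLRN3 had 3 all-4 regions, the strongest 4.29 kb from it (chr10:127872744-127873548) at 99.8 and 99.4 (P1) and 99.95 and 99.95 (pan). ERBB3, a receptor tyrosine kinase gene, had one inside it (chr12:56081620-56082473) at 97.9 and 98.5, and 98.7 and 99.5. CTSE, the cathepsin E gene, and GATA6, a transcription factor gene of endoderm, had all-4 regions 24.5 and 20.7 kb away and no pan-only region. AGR2 and TSPAN8, a disulfide isomerase gene and a tetraspanin gene, had pan-only and no all-4 regions, the AGR2 pan-only region at pan percentiles of 43.7 and 20.6. Of the 24 basal and squamous genes that matched, 7 had an all-4 region and 5 only a pan-only region. TP63, the squamous lineage factor, had one inside it (chr3:189772771-189773615) at 19.5 and 60.9 with the P1 antibody and 90.8 and 91.4 with the pan antibody, so that the P1 lists were far apart.

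Among endodermal transcription factors, a region at the edge of CREB3L3 (chr19:4153069-4153891), the gene of a lipid-regulating factor of liver and gut, was at 96.9 and 91.0 (P1) and 98.2 and 97.2 (pan). KLF5, an epithelial zinc finger factor gene, had a region 9.21 kb away (chr13:73044858-73045765) at 78.1 and 78.6, and 96.4 and 95.4. PPARA, which encodes a fatty acid receptor, had 5 all-4 regions. NR0B2, NR1H4 and GATA4 had pan-only and no all-4 regions. CDX2 and PDX1 shared 1 all-4 region and were not independent entries.

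Among metabolic genes, ABAT, the GABA transaminase gene, had a region at its edge (chr16:8673845-8674923) at 99.3 and 99.0 (P1) and 99.7 and 99.9 (pan), and TPMT, a thiopurine methyltransferase gene, one inside it (chr6:18146926-18147798) at 98.3 and 97.7, and 99.3 and 99.2. In the list of amino acid, drug and bile acid metabolism 10 of 25 genes had an all-4 region and 6 only a pan-only region, among them the bile acid genes ABCB11, CYP27A1 and CYP8B1. In the lipoprotein list 4 of 20 had an all-4 region (20%, below the 22.7% of all genes), namely CIDEB, ACSL5, MOGAT2 and ANGPTL4. A further 3 had only a pan-only region, namely APOM, DGAT1 and FABP2. The remaining 13 had neither, among them APOA1, APOB, APOC3 and MTTP. The ACSL5 region (chr10:112379555-112380510), inside an acyl-CoA synthetase gene, was at 98.5 and 97.4, and 99.3 and 98.1. In the gluconeogenesis and glycolysis list the counts were 7 and 7 of 20. PCK1, which encodes the gluconeogenic enzyme phosphoenolpyruvate carboxykinase, had no all-4 region and a weak pan-only region 0.159 kb away (chr20:57560609-57560951), at 10.9 and 10.8.

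Among tight junction genes, a region at the edge of CGN, the cingulin gene (chr1:151508897-151510533), was at 97.4 and 95.5 (P1) and 99.4 and 98.2 (pan), and that inside CDH1, the E-cadherin gene (chr16:68792273-68793295), at 88.2 and 90.8, and 96.3 and 98.3. DSG2, DSP, TJP1, CLDN2 and CLDN3 had pan-only and no all-4 regions. Of 26 growth control and cell cycle genes, 8 had an all-4 region and 8 only a pan-only region. AURKA, a mitotic kinase gene, had an all-4 region at its edge (chr20:56391725-56392873) at 94.97 and 88.7, and 97.7 and 95.8. MYC, CCND1, CDK6 and PCNA had pan-only and no all-4 regions, with CCND1, the cyclin D1 gene, at pan percentiles of 19.6 and 23.4. Of 20 gastric identity genes, 3 had an all-4 region, CTSE, CAPN8 and PGC (15%, below the 22.7% of all genes).

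All-4 regions were present more often than pan-only regions in every one of the 12 pan lists from other cells and genotypes. These lists had unlike cutoffs. The lowest −log10 q was 8.00 to 8.04 in the induced-line lists and 2.00 to 2.02 in the sgNC and sgP1 pan lists. Shares are therefore not comparable between the induced lines and ASPC1. In Panc10.05, 84.7% and 84.7% of all-4 regions were in the P1-a2 lists and 80.5% and 79.6% in the P2-a8 lists, against 54.3% and 61.3%, and 56.3% and 52.0%, of pan-only regions. In BxPC3, 85.8% and 81.7% of all-4 regions were in the P1-a2 lists and 66.5% and 65.7% in the P2-a8 lists, against 58.6% and 47.2%, and 25.9% and 24.8%, of pan-only regions. In ASPC1 the sgP1 pan lists held 99.2% and 98.9% of all-4 and 76.3% and 68.3% of pan-only regions. The sgNC pan lists held 99.7% and 99.5%, and 97.1% and 83.3%. P1-only regions were in none of the 8 lists of the induced lines, which allows a share of up to 30% for 10 regions, in 3 of 10 cases in sgP1 replicate 1 and in 1 in sgNC pan replicate 2.

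**Figure D5:**
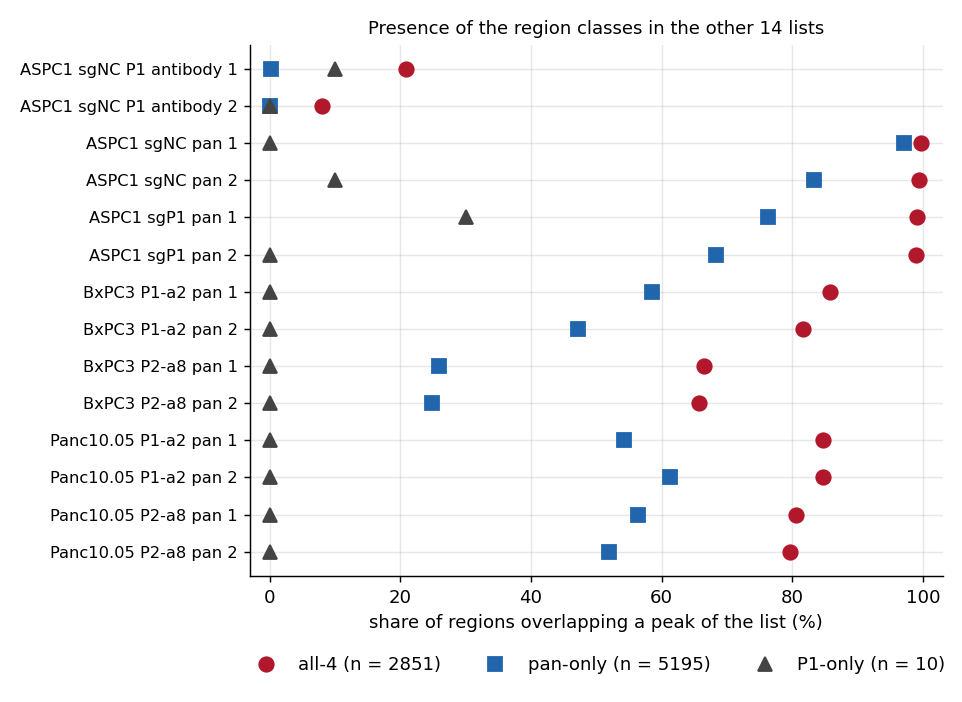
Each row is 1 of the other 14 lists with its replicate number, and the horizontal axis gives the share (%) of each region class that overlaps a peak of that list. All-4 regions are to the right of pan-only regions in every row, and in the P1-antibody lists of sgNC they reach 20.8% and 7.96%.

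At matched pan rank the gap depended on the lists and on the decile. The deciles of the pan rank in which both classes had at least 20 regions were 1 and 4 to 9. In deciles 4 to 9, all-4 regions were present more often than pan-only regions in 48 of 48 combinations of decile and induced-line list, by 4.34 to 34.6 percentage points (median 17.1). In decile 1, with its 20 all-4 regions, they were present less often in all 8 induced-line lists, by -34.7 to -2.76 points. In the 4 sgNC and sgP1 pan lists, they were present more often in 16 of 24 combinations over deciles 4 to 9, equally in 6 and less often in 2, and over deciles 8 and 9 the median gap was 0. In decile 1 the gap was -31.8 and -12.1 points in sgNC and 9.72 and 28.2 in sgP1. Within a decile the classes still differ in rank, and the lists share the same regions, so these values are not independent. Induced-line and ASPC1 lists also differ in their lowest −log10 q.

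The gap was compared between isoforms and genotypes. All-4 minus pan-only presence was 28.9 ± 4.66 percentage points in the P1-a2 lists and 33.3 ± 8.67 in the P2-a8 lists (SD, n = 4 each). The difference was -4.43 points, and permuting the 36 labellings within line gave an exact two-sided p of 0.278 (smallest possible 0.05556; 0.389 adjusted over 7 tests). In ASPC1 the gap was 9.38 ± 9.65 points in sgNC and 26.7 ± 5.45 in sgP1 (SD, n = 2 each), a difference of -17.4 with an exact permutation p of 0.3333, the smallest possible. For P1-only minus pan-only presence, which rests on 10 regions nearly always absent and so restates the pan-only share, the isoform difference was -15.6 points (exact permutation p = 0.111) and the sgNC to sgP1 difference -27.9 (exact permutation p = 0.3333). Equal length kept these directions and made each value smaller, except the all-4 isoform difference with the 4 sgP2 lists cut, which was larger. With the other lists cut to equal length, the all-4 differences were -1.63 (isoforms) and -2.10 points (sgNC to sgP1), and the P1-only differences -3.94 and -7.24. With the 4 sgP2 lists cut instead, they were -11.8 and -3.93, and -10.8 and -1.65. The exact permutation p of both isoform differences was then 0.05556, the smallest possible and not adjusted. With the other lists cut it was 0.222 (all-4) and 0.278 (P1-only). The P1-only class of the cut sgP2 lists held 142 regions, of which 131 were in both full pan lists. Line and library series cannot be told apart.

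Regions specific to an isoform of the induced lines were counted in both classes. The shares are of all regions of a class, also those in no list of the line. At equal length the latter were 37.6% of pan-only and 13.3% of all-4 regions in Panc10.05, and 62.7% and 22.8% in BxPC3. The same shares over all merged regions were not computed. In Panc10.05 at an equal length of 24828 peaks, 7.35% of pan-only and 5.93% of all-4 regions were in both P1-a2 lists and neither P2-a8 list, and 1.19% and 0.351% the reverse. In BxPC3 at an equal length of 12681 peaks, 1.44% and 1.54% were specific to P1-a2 and 2.43% and 3.79% to P2-a8. With the full BxPC3 lists, which are longer for P1-a2, the direction was the other one, at 14.7% and 8.56% for P1-a2 and 0.0962% and 0.0702% for P2-a8. In each of these settings both classes leaned to the same isoform. In Panc10.05 the isoforms also differed in doxycycline dose. The difference between the lines was not tested.

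The P1 antibody in sgNC cells picked out the top of the all-4 class. Of the 2851 all-4 regions, 20.8% were in sgNC P1 replicate 1 (697 peaks) and 7.96% in replicate 2 (260 peaks). Of the 5195 pan-only regions, 11 (0.212%) were in replicate 1 and 0 in replicate 2, which allows a share of up to 0.0577%. The 187 all-4 regions in both sgNC P1 lists had median percentiles of 96.3 and 96.0 in the sgP2 P1 lists and 98.3 and 98.6 in the sgP2 pan lists. The 446 in 1 of them had 85.5 and 82.2, and 93.6 and 94.5, and the 2218 in none had 63.0 and 54.3, and 84.6 and 87.5.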

How the data were processed

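Peak lists of the 4 ASPC1 sgP2 immunoprecipitations were compared, beside 14 lists of the other groups; the 14 input libraries have no list here. Each deposited narrowPeak list is of 1 library. The deposited lists give each peak's fold enrichment as a ratio, its −log10 p-value and −log10 q-value, and a score. Bowtie2 2.2.9, MACS2 2.2.7 and the builds hg38 and mm10 are named in the submitters' processing notes without a role. hg38 was taken as the build, being the human one. The fold is the authors' and was used only for ranks within a list. Read depth and the control used for calling are not given in the sources used here. The lowest −log10 q in the 4 lists was 2.00 to 2.01.

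Regions were merged at 1 bp of overlap and take the strongest peak of each list. Genes are the 20037 protein-coding genes of RefSeq GRCh38.p14, by distance to the gene's span. Starts came from 22199 promoter windows of 15843 genes, without chromosome 8, for which distances to starts were not analysed here. Of the regions, those named were the 8 strongest of each class by mean percentile (all 10 P1-only regions), the 6 with the largest shift each way, and up to 4 genes of each gene list by percentile; other genes were named after their values were seen. A gene that this rule selects is not reported here. Members and gene lists were chosen with earlier results of these data known. Tests were exact permutations over lists (Python 3.11.15, scipy 1.17.1). The comparison of all-4 with pan-only presence, the split by pan rank, the shortened lists' follow-up and the isoform-specific counts were added after seeing the data. On simulated, well separated sites the region code returned the class sizes that had been set (2700 of 2700 sites in total). Single sites were not checked there. Against bedtools 2.31.1 there were 0 differing overlap calls of 320544. Alternatives were a −log10 q of at least 5 or 20, equal list length, summits within 100 bp, reciprocal overlap of 50%, ranks by −log10 p, leaving out each replicate and a replicate block.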

Additional observations from a re-analysis of the deposited data

How the results depend on the processing

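The sizes of the classes depended on list length, the rule of overlap and the threshold. Leaving out 1 replicate loosens the rule for a class, so those counts could hardly fall. P1-only regions, 10 with the full lists, numbered 6 at a minimum −log10 q of 5 and 3 at 20, 142 at equal length, 38 with summits within 100 bp, 609 with a reciprocal overlap of 50%, and 14 to 617 without 1 replicate. Pan-only regions numbered 2587 at a −log10 q from 20, 243 at equal length and 5954 to 9837 without 1 replicate. All-4 regions numbered 982 at a −log10 q from 20, 1382 with a reciprocal overlap of 50% and 2861 to 4319 without 1 replicate. The reciprocal rule drops pairs of peaks that differ in width. The rank agreement of same against different antibodies, -0.032, turned to 0.029 with ranks by −log10 p, ran from -0.084 to 0.049 without 1 replicate, and was 0.033 in the replicate block, which used only lists with different numbers. The cause was not tested. The share of the strongest decile of pan regions in both P1 lists, 96.8%, was 98.0% with ranks by −log10 p and 97.7% and 99.0% with 1 P1 list. Width, start share and the 4 presence differences kept their direction in every setting run, with ranges without 1 replicate of -0.93 to -0.78 (log2 width ratio), -4.90 to -3.08 points (start share), -18.4 to -10.6 and -6.23 to -1.29 points (P1-a2 against P2-a8, for P1-only and all-4), and -39.9 to -12.0 and -24.2 to -10.5 points (sgNC against sgP1). Equal length shrank the start share difference from -3.99 to -0.77 points and the presence differences of P1-only and all-4 regions from -27.9 and -17.4 to -7.24 and -2.10 (sgNC against sgP1), and from -15.6 and -4.43 to -3.94 and -1.63 (isoforms), with the other lists cut. With the 4 lists cut, they were -1.65 and -3.93, and -10.8 and -11.8, the last being larger. No test of 2 lists against 2 could reach 0.05. Same-numbered lists deviated together in rank (Pearson's r of their deviations 0.467 over 2851 regions) and little in presence (0.041 over 17808 regions). With only 2 pairs and no label tying the numbers, they were not treated as pairs, and same-number lists of different antibodies had a rho higher by 0.130 than different-number lists, or by 0.029 with ranks by −log10 p. With the replicate block, the permutation within pairs, the exact p was 0.5 for width, start share and the sgNC to sgP1 differences, and 0.25 and 0.375 for the isoform differences. Using the starts of all genes raised the share within 1 kb to 16.1% of all-4 and 20.2% of pan-only regions.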
